A study of Mus musculus with 6 samples.

Results

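The genes of glycolysis and of the transcriptional response to low oxygen were followed in thoracic lateral plate mesenchymal cells (LPMs) of mouse embryos. The set held 38 genes, found by their symbols among the 49585 genes of the expression table, and all 38 were present. It comprised 2 glucose transporters, 15 glycolytic enzymes, 5 genes of lactate and pyruvate handling, 1 regulator of glycolytic flux, 5 oxygen sensors and hypoxia-inducible factor (HIF) subunits, and 10 other genes known as hypoxia responsive. Their transcripts were measured by RNA-seq in 3 Prx1-Cre Ebf3 flox/+ samples (heterozygous) and 3 Prx1-Cre Ebf3 flox/flox samples (KO), all from E10.5 embryos of the C57BL/6 strain.

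Both groups carried Prx1-Cre, a recombinase active in lateral plate mesoderm, and the R26R Tdtomato reporter by which recombined cells were sorted by FACS from dissected thoracic walls. The heterozygous group therefore had a floxed Ebf3 allele exposed to Cre as well, and neither group had both alleles intact. The floxed exons encode the DNA-binding domain, so that reads from the rest of the gene could still be counted. The comparison asked how loss of Ebf3, a transcription factor studied for its part in ossification of the sternum, altered transcripts in these cells. The labels do not say whether a sample was 1 embryo or a pool, and p-values measure the spread between these samples, which may be technical.

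Glycolysis splits glucose into pyruvate. Glucose enters through transporters of the Slc2a family, a chain of cytosolic enzymes converts it, and lactate dehydrogenase with the monocarboxylate transporters disposes of the product as lactate. When oxygen is scarce the prolyl hydroxylases that mark HIF-1alpha for destruction slow down, HIF-1alpha pairs with Arnt, and the pair binds short DNA elements with the core ACGTG or GCGTG near many glycolytic genes. Embryonic mesenchyme before full vascularization is known as a glycolytic, oxygen-poor tissue.

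Libraries held 2088091 to 3525565 gene counts, and 83.4% to 88.4% of reads were mapped. Ebf3 itself had 308, 238 and 248 counts in heterozygous and 179, 87 and 220 counts in KO libraries, with a log2 fold change of -0.74 ± 0.18 (SE, n = 3 per group). Its groups did not overlap, and its adjusted p was 1.00 (edgeR). All 15 lateral plate mesenchyme markers passed the count minimum, with summed levels of 3737 to 4766 CPM (counts scaled to the effective library size) in the heterozygous and 3225 to 4641 CPM in the KO libraries. Within that list Foxf1 (log2 fold change 0.96), Osr1 (1.30) and Hand2 (-0.42) reached an unadjusted p of 0.05. Other cell types left uneven traces. Cardiomyocyte markers, 5 of 7 passing the minimum, summed to 41.4 to 597 CPM in the heterozygous libraries and 124 to 2213 CPM in the KO libraries, highest in KO replicate 1. Endothelial markers, 7 of 10 passing, summed to 78.7 to 244 CPM and 94.2 to 283 CPM in the same order, and liver bud markers, 4 of 7 passing, to 29.0 to 73.7 CPM and 8.92 to 267 CPM. Myogenic markers, 4 of 9 passing, summed to 83.7 to 149.9 CPM and 118 to 295 CPM, and surface epithelium markers, 4 of 7 passing, to 238 to 378 CPM and 235 to 281 CPM. Neural markers, 2 of 10 passing and led by Nefl (log2 fold change 1.77), summed to 4.97 to 22.4 CPM and 18.3 to 52.4 CPM. None of the erythroid or myeloid markers passed the minimum, and the erythroid list summed to 0.426 to 6.22 CPM and 1.24 to 25.4 CPM, with 1 gene of the list at 0 in all libraries, and the myeloid list to 2.07 to 3.83 CPM and 0.496 to 8.68 CPM. Immediate early genes, 16 of 23 passing and including Egr1, Atf3, Cyr61 and Btg2, had positive fold changes for all 16, 7 at an unadjusted p up to 0.05, and their sum reached 1283 CPM in KO replicate 3 against 458 to 739 CPM in the other libraries. That library also had 27.2% of reads in broken pairs against 32.7% to 33.5% elsewhere. In bulk RNA, fewer cells of a type and less RNA per cell cannot be told apart, and the part of these differences in the results below was not tested.

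Most glycolytic and hypoxia response transcripts were well detected in both genotypes, and none was called different between them. Of the 38 genes, 33 reached at least 10 counts in at least 3 libraries and were tested, and Aldoc, Eno2, Egln3, Car9 and Adm did not. None of the 33 passed an adjusted p of 0.05 in edgeR's quasi-likelihood test with Benjamini-Hochberg adjustment, as for all 10891 genes tested (0.0%), and the adjusted p of each was 1.00. DESeq2 and limma-voom also called 0 of all genes, with 125 and 250 at an unadjusted p up to 0.05. In edgeR none of the 33 reached an unadjusted p of 0.05, which 234 genes in all did (2.15%), 150 of them higher in KO (1.38%) and 84 lower (0.771%). The looser limit of 0.1 was reached by 3, namely Slc16a3, higher in KO like 384 of all genes (3.53%), and Slc2a3 and P4ha2, both lower in KO like 248 of all genes (2.28%), in all 632 genes (5.8%). In CPM the groups did not overlap for 1 of the 33, Egln1, against 812 of all genes (7.46%), 430 of them higher in KO (3.95%).

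The sizes of the differences were bounded in most of the set. The log2 fold change lay within 0.25 of 0 for 26 of the 33 genes (78.8%), against 75.8% of all genes tested, and its median was 0.04, against 0.00067 for all genes. It was positive for 22 of the 33 (66.7%), against 50.2% of all genes, but that count rested on single libraries and on the unit. It was 14 of 33 without KO replicate 2, 15 of 32 without KO replicate 1, 16 of 32 without heterozygous replicate 1, and 14 of 33 with RPKM in place of counts. The median turned to -0.02 without KO replicate 1 or 2 and to -0.01 with RPKM. With RPKM the median of all genes fell as well, to -0.023 (pseudocount 1) and -0.047 (pseudocount 0.1), below that of the set. Without KO replicate 1 or 2 the median of all genes was 0.0063 or -0.0078. The 95% interval of the fold change stayed within 2-fold either way for 28 genes and within 1.5-fold for 22. The interval reached 2-fold for Slc2a3, Epas1, Ankrd37, Ndrg1 and Ddit4, so a change of that size lay within the interval of these 5. For 27 of the 33 genes the difference between the genotype means was smaller than the pooled SD of the replicates. The plot of log2 fold changes by role shows the same spread gene by gene.

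**Figure D1:**
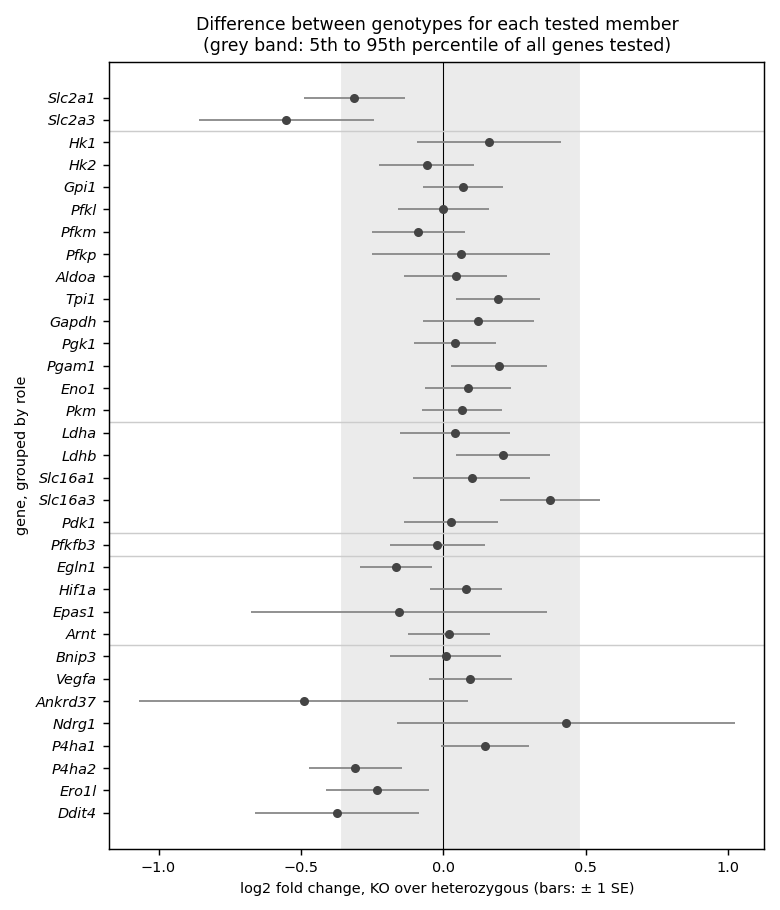
Log2 fold change of each of the 33 tested genes (x axis, KO over heterozygous) with bars of 1 SE, grouped by role on the y axis; the grey band covers the 5th to 95th percentile of all 10891 genes tested (-0.36 to 0.48). The 13 enzymes lie between -0.09 and 0.19, both glucose transporters lie below 0, and Slc2a3, Ankrd37 and Ddit4 lie left of the band.

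Cores of HIF binding elements occurred in the promoters of many of these genes. A RefSeq promoter window of the mouse build GRCm38.p6, from 250 bases before to 50 bases after the annotated start, was matched for 35 of the 38 genes, the first window being taken where a gene had several. ACGTG or GCGTG was found on either strand in 28 of the 35 (80.0%), against 43.8% of 27025 promoters and 65.6% of the 8455 promoters of genes that passed the count minimum. ACGTG alone was found in 21 of the 35 (60.0%), against 19.7% and 26.8%. The windows of the 35 genes were also richer in G and C, with a median of 65.0% against 52.7% and 61.7%, and the part of base composition in these shares was not tested. A match to these letters is a description and not a binding site.

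Stretches of 81 bases around such cores are shown for 6 genes on which the following results turn or, for Ldha, as an example of a palindromic core. Palindromic cores also occurred in Pfkm, Slc16a1, Bnip3 and Hif1a, whose stretches are not shown. They are written 5′ to 3′ in the direction of the gene, and capitals mark ACGTG or GCGTG or, where the core is on the opposite strand, CACGT or CACGC. In Ldha the capitals CACGTG hold ACGTG on both strands, which overlap and were counted once per strand. The Slc2a1 stretch is chr4:119108671-119108751 on the plus strand, that of Ldha is chr7:46845621-46845701 on the plus strand, that of Slc16a3 is chr11:120949002-120949082 on the plus strand, that of Egln1 is chr8:124949280-124949360 on the minus strand, that of P4ha1 is chr10:59323242-59323322 on the plus strand, and that of P4ha2 is chr11:54100808-54100888 on the plus strand.
Slc2a1: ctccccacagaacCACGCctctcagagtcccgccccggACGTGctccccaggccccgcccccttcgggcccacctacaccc
Ldha: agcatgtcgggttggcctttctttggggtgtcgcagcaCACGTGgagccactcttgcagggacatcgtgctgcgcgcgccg
Slc16a3: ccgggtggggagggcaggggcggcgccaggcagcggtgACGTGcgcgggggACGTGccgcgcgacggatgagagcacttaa
Egln1: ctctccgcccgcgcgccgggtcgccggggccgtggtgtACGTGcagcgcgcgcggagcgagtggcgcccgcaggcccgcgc
P4ha1: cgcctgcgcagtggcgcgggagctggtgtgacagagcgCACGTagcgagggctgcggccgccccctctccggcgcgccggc
P4ha2: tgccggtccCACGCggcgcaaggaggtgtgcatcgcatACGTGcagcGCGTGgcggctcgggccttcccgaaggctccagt

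Both glucose transporters had lower mean levels in KO without passing the test. Slc2a1, which encodes the broadly expressed glucose transporter GLUT1 (chr4:119108711-119137983 in the files' mm10 coordinates), had 83.6, 61.3 and 67.7 CPM in the heterozygous libraries and 65.7, 60.5 and 46.6 CPM in the KO libraries. Its log2 fold change was -0.31 ± 0.18 (SE, n = 3 per group), and 2 of the 3 KO values lay inside or within 1 CPM of the heterozygous range. Slc2a3, which encodes the high-affinity transporter GLUT3 (chr6:122727809-122801640), had 116, 55.5 and 61.7 CPM in the heterozygous libraries and 69.8, 59.0 and 33.6 CPM in the KO libraries. Heterozygous replicate 1 was far above the others and KO replicate 3 was lowest, and the remaining 4 libraries mixed. The log2 fold change of Slc2a3 was -0.55 ± 0.31 (SE, n = 3 per group), with a fold interval of 0.428 to 1.09. Without heterozygous replicate 1 it was -0.13, and that of Slc2a1 was -0.17, and without KO replicate 3 the median of both was -0.22 in place of -0.43, so the sizes rested largely on these libraries, while the sign stayed negative in each. KO replicate 3, the lowest for both genes, was also the library with the most immediate early transcripts. It had the largest sums of endothelial, liver bud, neural and erythroid markers as well. The part of these differences in the transporter levels was not tested.

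Glucose is trapped in the cell by hexokinase, and here the hexokinase transcripts did not separate the genotypes. Hk2, the isozyme tied to rapidly growing and hypoxic cells, had 123, 121 and 149.9 CPM in the heterozygous libraries and 138, 142 and 99.0 CPM in the KO libraries, with a log2 fold change of -0.06. Hk1, the common isozyme, had 31.3, 31.5 and 37.0 CPM in the heterozygous libraries and 54.1, 31.2 and 26.8 CPM in the KO libraries, with a log2 fold change of 0.16. KO replicate 1 alone held the high Hk1 value. It was also the library with the largest sums of cardiomyocyte, myogenic and myeloid markers, and their part in Hk1 was not tested. Per length, in the deposited RPKM, Hk1 made up 15.1% ± 0.354 in heterozygous and 17.0% ± 4.03 in KO (SD, n = 3) of Hk1 and Hk2 together.

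Phosphofructokinase commits sugar to glycolysis and has liver, muscle and platelet subunits. The liver subunit Pfkl had 221, 286 and 199 CPM in the heterozygous libraries and 249.6, 241 and 215 CPM in the KO libraries, with a log2 fold change of 0.00. The muscle subunit Pfkm had 51.0, 55.5 and 46.8 CPM in heterozygous and 49.99, 40.2 and 53.2 CPM in KO libraries and a log2 fold change of -0.09. The platelet subunit Pfkp had 20.3, 15.7 and 18.7 CPM in heterozygous and 28.9, 17.4 and 11.9 CPM in KO libraries and a log2 fold change of 0.06, and its KO values spanned the whole range seen in the heterozygous group. As a share of the summed RPKM, Pfkl held 73.3% ± 2.36 in heterozygous and 74.6% ± 3.14 in KO (SD, n = 3), Pfkm held 23.9% ± 1.71 in heterozygous and 22.6% ± 3.56 in KO (SD, n = 3) and Pfkp held 2.76% ± 0.645 in heterozygous and 2.85% ± 1.09 in KO (SD, n = 3), so the subunit order was the same in both genotypes. Pfkfb3, which makes the allosteric activator of phosphofructokinase, ranged from 51.0 to 74.5 CPM with a log2 fold change of -0.02.

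Several enzymes between glucose phosphate isomerase and pyruvate kinase were among the most abundant genes of the set, while Pfkm, Pfkp, Aldoc and Eno2 were low. Pkm, pyruvate kinase of muscle and of proliferating cells, had 1192, 1417 and 1248 CPM in the heterozygous libraries and 1181, 1538 and 1317 CPM in the KO libraries. Eno1, the common enolase, had 909, 1085 and 1019 CPM in the heterozygous libraries and 894, 1257 and 1048 CPM in the KO libraries. Their log2 fold changes were 0.07 and 0.09, and for both genes the heterozygous values lay within the range of the KO values. Aldoa, the main aldolase of muscle and embryo, had 527, 798 and 621 CPM in the heterozygous libraries and 560.2, 809 and 636 CPM in the KO libraries, with a log2 fold change of 0.04. Gpi1, the isomerase that makes fructose 6-phosphate, had 271, 365 and 323 CPM in heterozygous and 324, 356 and 325 CPM in KO libraries. Tpi1, triose phosphate isomerase, had 218, 268 and 236 CPM in heterozygous and 248, 319 and 257 CPM in KO libraries. Pgam1, phosphoglycerate mutase, had 228, 282 and 209 CPM in heterozygous and 231, 329 and 264 CPM in KO libraries. The log2 fold changes of these 3 genes were 0.07, 0.19 and 0.19, each with overlapping groups. Pgk1, phosphoglycerate kinase, had 157, 193 and 149.9 CPM in heterozygous and 173, 186 and 155 CPM in KO libraries, with a log2 fold change of 0.04 and KO values inside the heterozygous range.

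Gapdh, the dehydrogenase often taken as a reference gene, had 108, 153 and 114 CPM in the heterozygous libraries and 99.6, 159.6 and 148 CPM in the KO libraries, a log2 fold change of 0.12 and overlapping groups. Its level is uncertain, because 168 annotated pseudogenes match at least 300 bases of its coding sequence at 90% identity or more, of which 159 are in the table. Of these, 11 had counts, summing to 179 over the 6 libraries against 2084 for Gapdh itself (7.91% of both). The other genes of the set with such copies were Gpi1, Aldoa, Tpi1, Pgk1, Pgam1, Eno1, Pkm, Ldha, Ldhb and Bnip3, and of their copies only 1 of Pgk1 had counts, 3 in all. For all 11 genes with pseudogenes the ratio of RPKM to count varied between libraries, after scaling, so both units did not rest on the same reads there. The ratio also varied for Slc2a1, Hk1, Pfkp, Egln1, Hif1a and Ndrg1, which had no such copies. Its coefficient of variation was largest in Ndrg1 (27.8%) and Slc2a1 (8.34%), against 3.7% in Gapdh.

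Across the 13 tested enzymes, 11 had a positive log2 fold change, and the range was -0.09 to 0.19 with a median of 0.07. That count rested on single libraries. It was 6 of 13 without KO replicate 2, with a median of -0.01, and 7 of 13 without heterozygous replicate 1. Enzyme transcripts varied between libraries of the same genotype, and many of them did so together. Summed over the 13 genes they took 0.406%, 0.503% and 0.429% of gene counts in the heterozygous libraries and 0.424%, 0.524% and 0.469% in the KO libraries. KO replicate 2 was highest of the 6 libraries for Aldoa, Tpi1, Gapdh, Pgam1, Eno1 and Pkm, and heterozygous replicate 2 for Gpi1, Pfkl, Pfkm and Pgk1. Heterozygous replicate 1 was above the mean of the 6 libraries for 2 of the 13. KO replicate 2 and heterozygous replicate 2 had the 2 lowest sums of endothelial markers, 94.2 and 78.7 CPM, and also of liver bud, myogenic and myeloid markers. They were not the 2 lowest for cardiomyocyte, neural, erythroid or surface epithelium markers. The part of these differences in the enzyme levels was not tested. The map of deviations by library shows the enzyme pattern by column.

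**Figure D2:**
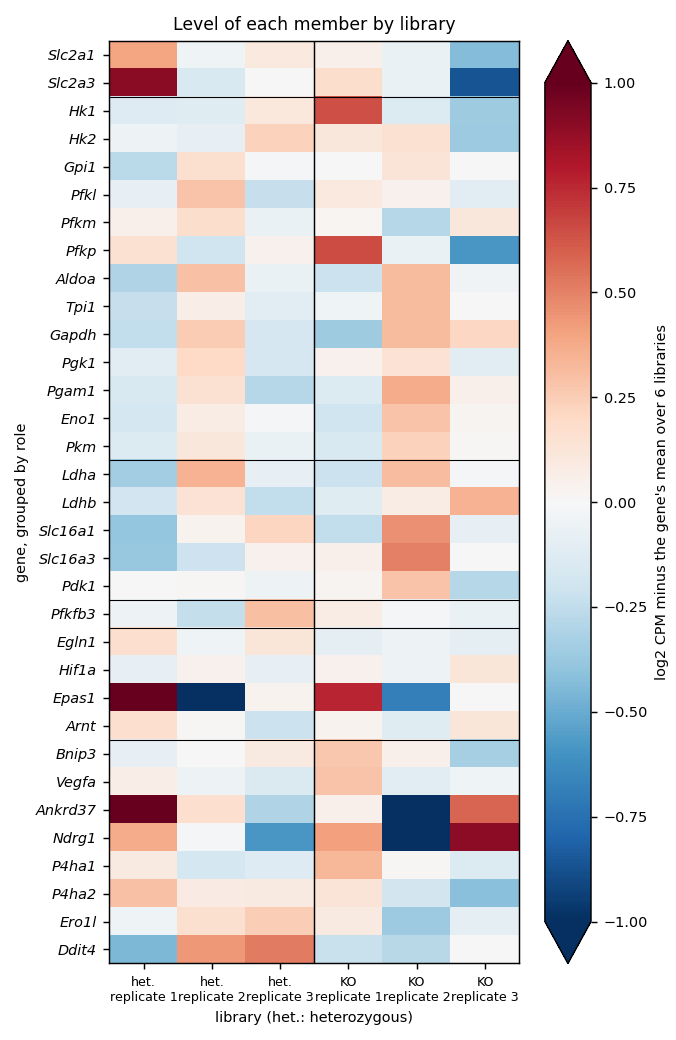
Log2 CPM of each of the 33 tested genes minus its mean over the 6 libraries (colour, cut at 1 either way), with libraries as columns and genes as rows grouped by role. Most enzymes and Ldha are above their mean in replicate 2 of both genotypes, and both glucose transporters are lowest in KO replicate 3.

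The genes that handle pyruvate and lactate had positive log2 fold changes in 5 of 5 cases, with a median of 0.10, but in 2 of 5 without KO replicate 2 and in 3 of 5 without heterozygous replicate 1. Ldha, the lactate dehydrogenase subunit induced by HIF, had 554, 898 and 668 CPM in the heterozygous libraries and 607, 876 and 697 CPM in the KO libraries, with a log2 fold change of 0.04. Ldhb, the subunit of oxidative tissues, had 78.3, 99.0 and 75.4 CPM in heterozygous and 82.2, 94.2 and 114 CPM in KO libraries, with a log2 fold change of 0.21. Ldha made up 80.5% ± 2.17 in heterozygous and 78.6% ± 3.64 in KO (SD, n = 3) of the 2 subunits per length. Neither subunit nor their ratio separated the genotypes, and Ldhb was highest in KO replicate 3.

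Slc16a3, the lactate exporter MCT4, had the smallest p of the set. It is located at chr11:120948480-120960868 and its promoter stretch above holds 2 cores. Its levels were 57.7, 65.1 and 77.5 CPM in the heterozygous libraries and 78.1, 107 and 75.0 CPM in the KO libraries. Heterozygous replicate 3 lay above KO replicate 3, so the groups overlapped, and KO replicate 2 was highest. The log2 fold change was 0.37 ± 0.18 (SE, n = 3 per group) with a fold interval of 0.992 to 1.69. Leaving out single libraries moved it between 0.20 and 0.49, always positive. Slc16a1, the bidirectional transporter MCT1, had 73.4, 98.6 and 112 CPM in the heterozygous libraries and 81.0, 132 and 90.7 CPM in the KO libraries, with a log2 fold change of 0.10 and overlapping groups. Pdk1, the kinase that shuts pyruvate out of the citrate cycle, ranged from 52.9 to 79.3 CPM, with a log2 fold change of 0.03.

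**Figure D3:**
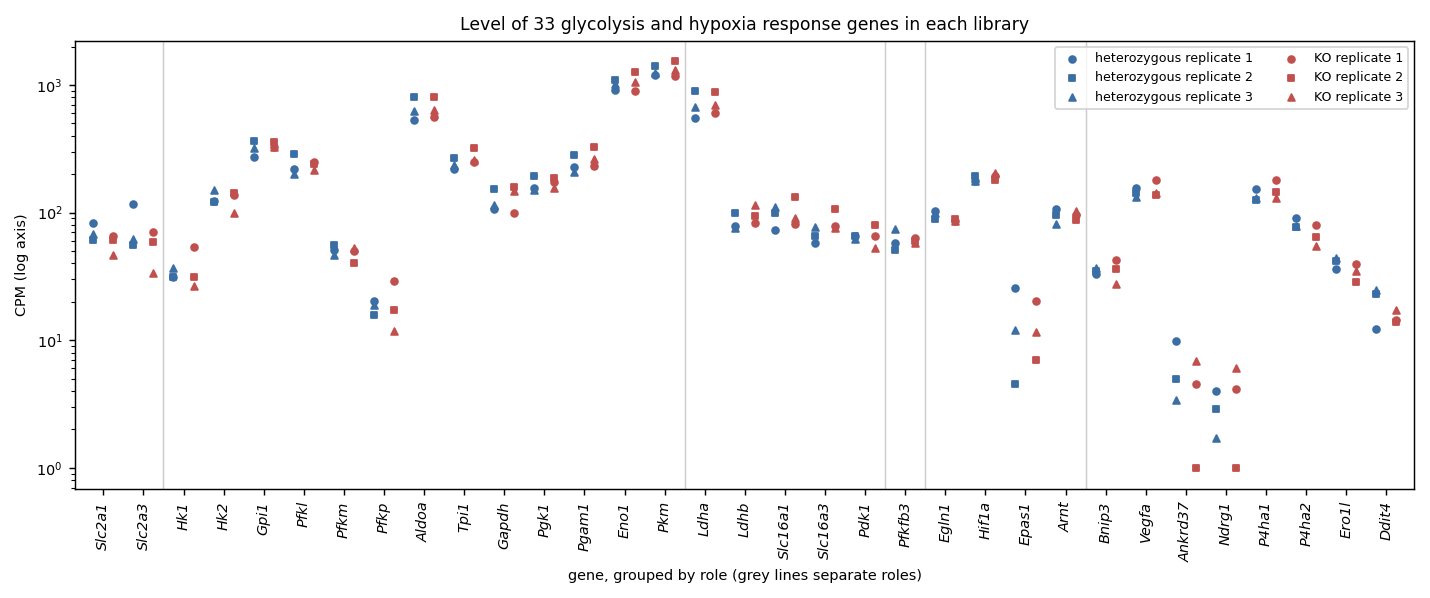
Level of each of the 33 tested genes in CPM (y axis, log scale) in the 3 heterozygous (blue) and 3 KO (red) libraries, with the marker shape giving the replicate and genes grouped by role on the x axis. Pkm and Eno1 are the highest genes in every library, Ankrd37 and Ndrg1 fall below 10 CPM, and only Egln1 has groups that do not overlap.

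None of the HIF subunits and oxygen sensors passed the test. Hif1a, the oxygen-regulated subunit, had 177, 193 and 176 CPM in the heterozygous libraries and 192, 180.5 and 203 CPM in the KO libraries, with a log2 fold change of 0.08 ± 0.13 (SE, n = 3 per group). Its fold interval was 0.873 to 1.28. Since HIF-1alpha is controlled mainly through stability of the protein, its transcript is not a measure of HIF activity. Arnt, its constitutive partner, ranged from 80.9 to 106 CPM, with a log2 fold change of 0.02. Epas1, which encodes the HIF-2alpha of endothelial and other cells, had 25.8, 4.56 and 11.9 CPM in the heterozygous libraries and 20.2, 6.94 and 11.6 CPM in the KO libraries. The heterozygous values of Epas1 alone spanned more than the KO values, and replicate 1 of each genotype was highest and replicate 2 lowest. Endothelial markers were lowest in replicate 2 of each genotype too, but highest in replicate 3, and their part in Epas1 was not tested.

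Egln1, the prolyl hydroxylase PHD2 and chief oxygen sensor (chr8:124908587-124949324), had 104, 89.5 and 100.1 CPM in the heterozygous libraries and 86.4, 88.7 and 86.3 CPM in the KO libraries. Every KO value was below every heterozygous value, although the gap between the nearest libraries was under 1 CPM. In RPKM the groups overlapped, and KO replicate 3 was highest, at 8.27 against 8.13, 5.81 and 6.07 in the heterozygous libraries. The log2 fold change was -0.17 ± 0.13 (SE, n = 3 per group), with a fold interval of 0.736 to 1.08. Non-overlap with KO lower occurred in 382 of all genes tested (3.51%), and 1 of 33 members (3.03%) is near that share. Egln3, a related and strongly hypoxia-inducible hydroxylase, stayed below the count minimum with 6, 1 and 9 counts in heterozygous and 7, 2 and 26 counts in KO libraries. Egln1 accounted for 97.4% ± 2.15 in heterozygous and 94.7% ± 4.38 in KO (SD, n = 3) of the RPKM of both hydroxylases.

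Among the other hypoxia response genes, the 2 tested subunits of collagen prolyl 4-hydroxylase, which prepares collagen for folding, differed in direction in the main fit. P4ha1 (chr10:59323296-59373304) had 152, 126 and 131 CPM in the heterozygous libraries and 180.1, 144 and 129.9 CPM in the KO libraries, and its log2 fold change was 0.15 ± 0.15 (SE, n = 3 per group). P4ha2 (chr11:54100095-54131665) had 90.0, 77.5 and 77.9 CPM in the heterozygous libraries and 80.2, 64.5 and 54.6 CPM in the KO libraries, and its log2 fold change was -0.31 ± 0.16 (SE, n = 3 per group). For each gene alone the groups overlapped. KO replicate 1 held the highest P4ha1 and the highest P4ha2 of the KO group. Without it the log2 fold change was -0.0012 for P4ha1 and -0.47 for P4ha2, so the difference in direction rested on that library.

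The ratio of both subunits was tighter than either level. The share of P4ha1 in the summed RPKM of P4ha1 and P4ha2 was 71.9, 71.2 and 71.8% in the heterozygous libraries and 77.3, 77.2 and 78.3% in the KO libraries. Every KO share exceeded every heterozygous share. The means were 71.6% ± 0.379 in heterozygous and 77.6% ± 0.608 in KO (SD, n = 3), a difference of 5.96 percentage points, and the two-sided exact permutation test gave p = 0.1, the smallest that 3 against 3 allows, or 0.6 after adjustment over the 12 shares compared. The difference stayed between 5.61 and 6.17 points with any single library left out, and was 7.07 points when CPM were used.

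Slc16a1 was the other share whose groups did not overlap, at 60.4, 64.6 and 63.4% in the heterozygous libraries and 55.5, 59.8 and 59.2% in the KO libraries of the summed RPKM of Slc16a1 and Slc16a3. Its means were 62.8% ± 2.12 in heterozygous and 58.2% ± 2.34 in KO (SD, n = 3), a difference of -4.63 points (exact permutation p = 0.1, adjusted p = 0.6). For Slc2a1 among both glucose transporters the share was 76.6, 82.3 and 80.7% in the heterozygous libraries and 81.9, 82.7 and 86.6% in the KO libraries, and the groups overlapped (exact permutation p = 0.2, adjusted p = 0.6). The RPKM to count ratio of Slc2a1 varied between libraries, and its share difference was 3.87 points with RPKM and 3.49 points with CPM. The remaining families were dominated by the same member in both genotypes. Aldoa held 99.8% ± 0.175 in heterozygous and 99.4% ± 0.284 in KO (SD, n = 3) of aldolase A and C, Eno1 held 99.9% ± 0.0603 in heterozygous and 99.9% ± 0.0738 in KO (SD, n = 3) of Eno1 and Eno2, and Hif1a held 94.9% ± 3.72 in heterozygous and 95.6% ± 2.10 in KO (SD, n = 3) of Hif1a and Epas1. None of the 12 shares passed after adjustment, and with 3 libraries a group none could.

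**Figure D4:**
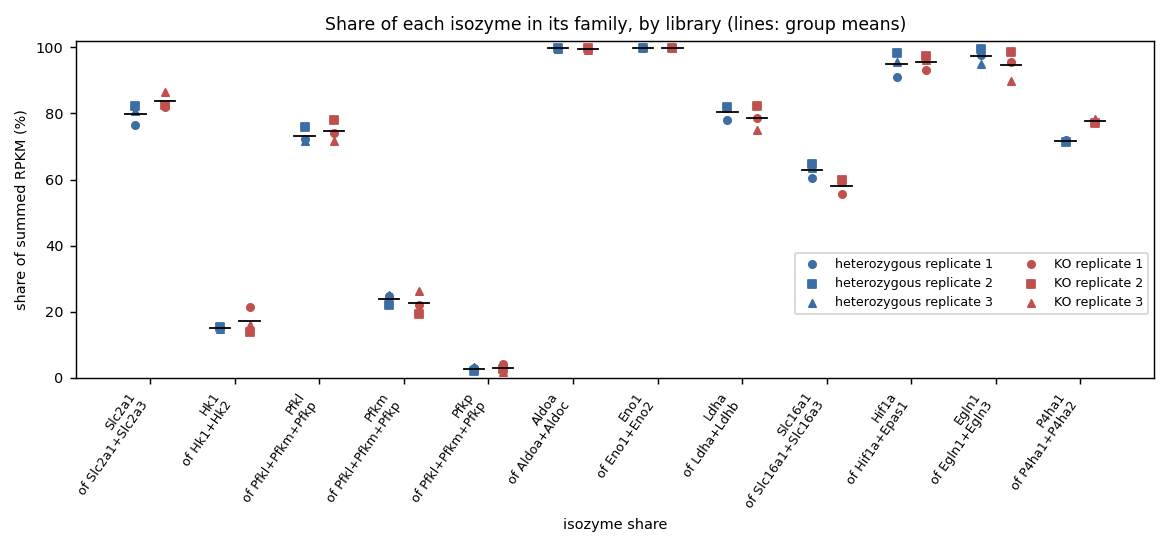
Share of an isozyme in the summed RPKM of its family (y axis, percent) in the 3 heterozygous (blue) and 3 KO (red) libraries, with black lines for group means. The P4ha1 share sits at 71.2% to 71.9% in the heterozygous and 77.2% to 78.3% in the KO libraries, and the Slc16a1 share also separates the groups.

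Vegfa, the angiogenic growth factor and a classical HIF target, had 155, 143 and 133 CPM in the heterozygous libraries and 180.1, 136 and 143 CPM in the KO libraries, with a log2 fold change of 0.09 ± 0.15 (SE, n = 3 per group). Bnip3, a mitophagy receptor, ranged from 27.6 to 42.1 CPM, with a log2 fold change of 0.01. Ero1l, an oxidase of disulphide bond formation in the endoplasmic reticulum, ranged from 28.8 to 44.3 CPM, with a log2 fold change of -0.23. None of these separated the genotypes, and Vegfa and Bnip3 were highest in KO replicate 1.

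Ddit4, an inhibitor of the growth kinase mTORC1, had 12.3, 23.2 and 24.7 CPM in the heterozygous libraries and 14.5, 13.9 and 17.1 CPM in the KO libraries, with a log2 fold change of -0.38 ± 0.29 (SE, n = 3 per group). Heterozygous replicate 1 was below all other libraries, and without it the log2 fold change was -0.64 (adjusted p = 1.00, edgeR). Ankrd37, a small HIF-responsive ankyrin protein, had 32, 12 and 8 counts in heterozygous and 11, 2 and 25 counts in KO libraries, and Ndrg1, a stress-responsive gene, had 13, 7 and 4 counts in heterozygous and 10, 2 and 22 counts in KO libraries. At these counts their log2 fold changes of -0.49 and 0.43 had SEs of 0.58 and 0.59, and KO replicate 2 with 2 counts of each was the lowest library. Of the 8 tested other hypoxia response genes, 4 had a positive log2 fold change, with a median of -0.11. Without KO replicate 1, 0 of 7 were positive, with a median of -0.34, against 0.0063 for all genes tested. With any other library left out, 3 or 4 were positive.

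The 5 genes under the count minimum were near the limit of detection in both genotypes. Aldoc, the aldolase of brain, had 1, 1 and 5 counts in heterozygous and 9, 4 and 17 counts in KO libraries. Eno2, the neuronal enolase, had 6, 5 and 0 counts in heterozygous and 1, 3 and 12 counts in KO libraries. Car9, a carbonic anhydrase that is among the most hypoxia-specific HIF targets, had 5, 1 and 0 counts in heterozygous and 0, 1 and 1 counts in KO libraries. Adm, which encodes the vasodilator adrenomedullin, had 5, 2 and 5 counts in heterozygous and 2, 2 and 4 counts in KO libraries. Without the count filter Aldoc had a log2 fold change of 1.91 (edgeR adjusted p = 0.941), with every library of both groups at 17 counts or fewer and overlapping groups.

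Per length, the order of the set was led by Eno1 with a mean of 100.9 RPKM over the 6 libraries, followed by Pkm with 77.3, Pgam1 with 70.7, Ldha with 55.4 and Aldoa with 44.9 RPKM. Pgk1, Tpi1 and Gapdh followed with 37.8, 30.3 and 28.5 RPKM, then Ldhb with 14.6 and Gpi1 with 13.3 RPKM, and the lowest were Eno2 and Car9 with 0.0880 and 0.0651 RPKM. For each gene the range over libraries overlapped that of its neighbour in this order. The genes were measured in the same libraries, so overlapping ranges do not show that neighbours were alike. Eno1 exceeded Pkm in every library. Gapdh, at 20.2 to 45.9 RPKM, likewise exceeded Ldhb, at 10.4 to 25.8 RPKM, in every library. KO replicate 3 was highest for most abundant members in RPKM and not in CPM, and the levels of single genes are therefore given between libraries in CPM, with the genotypes compared in RPKM only as an alternative.

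Genes of the same pathways outside the set gave few differences as well. Of 33 other glycolysis and gluconeogenesis genes, 15 were tested, 11 had a positive log2 fold change, none reached an unadjusted p of 0.05, and the median was 0.11. Of 17 other HIF regulators, 15 were tested, 7 were positive and none reached it. Of 46 other hypoxia targets, 37 were tested, 24 were positive, and 1 reached it, Ccng2, an atypical cyclin, with 38.1, 37.3 and 29.4 CPM in the heterozygous and 44.2, 42.6 and 49.1 CPM in the KO libraries (log2 fold change 0.38 ± 0.17, SE). Of 33 genes of pyruvate dehydrogenase and the citrate cycle, 28 were tested, 20 were positive, and 1 reached it. This was Mpc2, a subunit of the carrier that brings pyruvate into mitochondria, with 8.60, 9.95 and 9.37 CPM in the heterozygous and 16.1, 14.9 and 16.3 CPM in the KO libraries (log2 fold change 0.76 ± 0.25, SE). All 10 genes of the pentose phosphate pathway were tested, 6 were positive and none reached it. For Ccng2 and Mpc2 the groups did not overlap, while no gene of these lists passed the adjusted threshold. Among all genes tested, 50.2% were positive and 2.15% reached an unadjusted p of 0.05 (edgeR). Groups did not overlap, with KO higher, for 3.95% of all genes. The counts of these lists are from the main fit, and their dependence on single libraries was not tested.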

How the data were processed

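Prx1:Tdtomato+ LPMs from thoracic walls at E10.5 were profiled by RNA-seq in 3 heterozygous and 3 KO samples. SMARTer libraries were sequenced on a NextSeq, and the authors mapped reads and annotated genes with Ensembl models supplied by CLC. The study's methods name mm10 and the labels mm9. Gene coordinates in the table match GENCODE M21 on mm10. The handling of reads that match several places is not given in the sources used here.

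The deposited counts per gene are whole numbers and were used for the main test. The deposited RPKM, scaled by the authors to gene length and mapped reads, served for levels compared between genes, for isozyme shares and their tests, and for an alternative fit. RPKM were above 0 in a library with a count of 0 for 5705 genes, so both units do not rest on the same reads. For 16 of the 33 tested members the RPKM to count ratio was constant after scaling, and for 17 it varied. The deposited quantile-normalized signal, its log2 values, and the authors' fold changes and p-values were not used. The authors' read totals per library (another deposited table) gave the mapped share.

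A gene was tested when 3 or more libraries held 10 or more of its counts, which 10891 did. The quasi-likelihood test of edgeR 4.0.16 under R 4.3.3 (TMM factors, glmQLFit) compared the genotypes with no other term, and p-values were adjusted over all tested genes by Benjamini-Hochberg. The pipeline was tested on simulated data. The SE was the log2 fold change divided by the square root of F, and 95% intervals used its t distribution. CPM are counts divided by the library size times its TMM factor. Isozyme shares were compared by two-sided exact permutation tests adjusted over 12 shares. Pseudogenes were sought with blastn 2.17.0 against GENCODE M21 transcripts. Promoter sequences came from RefSeq on GRCm38.p6.

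The members and the other gene lists were chosen with earlier results of these data known. Values in every sample are given for members at an unadjusted p up to 0.1, with groups that do not overlap, among the 10 highest by CPM, in an isozyme family or under the count minimum. From other lists, up to 4 genes at an unadjusted p up to 0.05 are named. The alternatives were DESeq2 1.42.0, library size, upper quartile factors, limma 3.58.1 (voom, with and without sample quality weights, and on log2 of RPKM plus 1 or 0.1), an equal-variance test on CPM, 2 other count filters, a block for the replicate number, and omission of each library in turn.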

Additional observations from a re-analysis of the deposited data

How the results depend on the processing

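No gene of the set passed the adjusted threshold under any alternative, the smallest adjusted p being 0.357 for Slc2a3 without the count filter. Genes at an unadjusted p up to 0.05 numbered 0 in the main analysis, 1 with library size alone or upper quartile factors (Slc16a3), 3 with voom sample quality weights (Slc2a1, Slc2a3, P4ha2), 3 without the filter (Slc2a3, Slc16a3, Aldoc), and 0 to 4 with 1 library left out, 4 without KO replicate 1 (Slc2a1, Slc2a3, Slc16a3, P4ha2). Among all genes that count was 234, and 125 with DESeq2, 492 with quality weights, 571 without the filter, 26 and 81 with RPKM (pseudocounts 1 and 0.1), 398 with the equal-variance test, 756 without KO replicate 1 and 127 without KO replicate 3. Genes past the adjusted threshold among all tested, 0 in the main analysis, were 38 without the count filter, 5 with RPKM at a pseudocount of 0.1 and 1 without heterozygous replicate 2, none of them in the set.

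With the replicate number as a block, 4 genes of the set (Slc2a1, Slc2a3, Slc16a3, P4ha2) and 493 of all genes reached it, and 2 of all genes passed the adjusted threshold (edgeR). Deviations of same-numbered libraries correlated at 0.431, 0.195 and 0.0134, which was the best match for replicates 1 and 2. KO replicate 3 correlated best with heterozygous replicate 2, at only 0.0920. These correlations do not settle whether the numbers mark pairs. The study's methods name no pairing, and the main test used none. Within replicate numbers, 6 of the 12 isozyme shares had differences of 1 sign in all 3, against 2 whose groups did not overlap (2 to 4 with 1 library left out). A shared sign is a looser criterion than groups that do not overlap, so these counts do not measure a gain from pairing. The shares of Pfkl, Pfkm and Pfkp are parts of 1 sum and not independent.

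Of 556 log2 fold changes of single genes under alternatives, 64 turned sign, and 12 genes never did. No gene of the set was called in any setting, so these turns concern uncalled genes only. The values were Pfkl -0.0012 (DESeq2), -0.0064 (quality weights) and -0.0081 (no filter), Pfkfb3 0.00018 (upper quartile), Pfkp -0.0847, Pdk1 -0.0093 and Bnip3 -0.0309 (voom), Pfkp -0.26, Pdk1 -0.0742, Hk1 -0.0697 and Bnip3 -0.13 (quality weights), and Bnip3 -0.0011 (no filter). With RPKM at pseudocounts 1 and 0.1 they were Aldoa -0.0098 and -0.0106, Pfkl -0.0332 and -0.0366, Pfkp -0.0080 and -0.0377, Eno1 -0.0072 and -0.0077, Ldha -0.0038 and -0.0043, Pdk1 -0.0216 and -0.0312, Bnip3 -0.0113 and -0.0153, and Arnt -0.0087 and -0.0241.

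With single libraries left out, the 21 log2 fold changes that crossed 0 ranged as Aldoa -0.12 to 0.22, Ankrd37 -1.10 to 0.0801, Arnt -0.0748 to 0.12, Bnip3 -0.15 to 0.17, Eno1 -0.0543 to 0.20, Epas1 -0.60 to 0.66, Gapdh -0.0112 to 0.30, Gpi1 -0.0360 to 0.17, Hk1 -0.21 to 0.37, Hk2 -0.15 to 0.0958, Ldha -0.12 to 0.25, P4ha1 -0.00115 to 0.25, Pdk1 -0.12 to 0.17, Pfkfb3 -0.13 to 0.14, Pfkl -0.11 to 0.16, Pfkm -0.18 to 0.0100, Pfkp -0.36 to 0.35, Pgk1 -0.0284 to 0.16, Pkm -0.0469 to 0.15, Slc16a1 -0.14 to 0.24, Vegfa -0.0374 to 0.16. The differences in share that crossed 0 ranged, in points, as Eno1 -0.0455 to 0.0256, Hif1a -1.31 to 2.38, Hk1 -0.302 to 3.61, Pfkl -0.429 to 2.67, Pfkm -3.27 to 0.256, Pfkp -0.481 to 0.600. The median of the set ranged from -0.0194 to 0.0950. The causes were not tested. At 2088091 to 3525565 gene counts per library, genes at a few counts such as Car9 and Adm fell below the count minimum and were fitted only without it.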
